A study of Mus musculus with 6 samples.

Results

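The BCL2 family sets the threshold at which a cell commits to mitochondrial apoptosis, and 10 of its genes were followed here in mouse kidney after ischemia and reperfusion. The members were Bcl2, Bcl2l1, Mcl1, Bax, Bak1, Bcl2l11, Bid, Bad, Bbc3 and Pmaip1, picked by gene symbol from a deposited table of 13026 genes. All 10 were present and all 10 passed the filter on low values, which kept 12836 genes. The 6 libraries came from kidneys of adult male mice on a C57BL/6J background, 3 of wild type mice (LIGHT+/+) and 3 of mice lacking the cytokine LIGHT (LIGHT-/-). LIGHT is the product of Tnfsf14, a member of the tumour necrosis factor superfamily. Both groups had the same operation, in which the 2 kidneys were deprived of blood for 32 min and reperfused for 24 h. No unoperated kidney was analysed here, so every difference is between genotypes after injury. How the LIGHT allele was made and whether the wild type mice were littermates is not stated in the labels. Nor do the labels say that every library comes from its own mouse, and p-values describe only how far these samples spread, which may be technical. Tnfsf14 itself was not analysed here, so the genotypes were not checked on the targeted gene.

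Apoptosis through mitochondria turns on the outer mitochondrial membrane. The effectors BAX and BAK open pores in it and release cytochrome c, which builds the caspase-activating apoptosome. The pro-survival proteins BCL2, BCL-XL (encoded by Bcl2l1) and MCL1 hold the effectors and their activators in check. The BH3-only proteins sense damage and tip the balance: BIM (Bcl2l11) and truncated BID can activate the effectors directly, PUMA (Bbc3) binds all the main pro-survival proteins, NOXA (Pmaip1) binds MCL1 above all, and BAD binds BCL2 and BCL-XL. In kidney, tubule cells die by this route and by regulated necrosis after ischemia. Most of the control acts on the proteins, through cleavage, phosphorylation, binding and degradation, and these data measure transcripts only.

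Several of these genes are known for transcriptional control. Bax, Bbc3 and Pmaip1 are targets of p53, Bcl2l11 and Bbc3 of FOXO factors, and Bcl2l1 of NF-kB and STAT factors. The 250 bases before an annotated start are shown for 3 members, at the start nearest to that of the whole gene. Bax and Bcl2l1 are shown because the genotypes did not overlap in them. Bcl2l11 itself overlapped between the genotypes, and is shown because its window holds a FOXO motif and Foxo1 did not overlap. Bak1, which did not overlap either, is not shown because its RefSeq window lies wholly inside an annotated UTR. Sequences are from RefSeq on GRCm38.p6, written 5′ to 3′ on the strand of the gene. Bax lies at chr7:45466899-45467148 on the minus strand, Bcl2l1 at chr2:152831729-152831978 on the minus strand and Bcl2l11 at chr2:128125788-128126037 on the plus strand. Capitals mark a p53 half-site and an E-box in Bax and a FOXO motif in Bcl2l11.
Bax: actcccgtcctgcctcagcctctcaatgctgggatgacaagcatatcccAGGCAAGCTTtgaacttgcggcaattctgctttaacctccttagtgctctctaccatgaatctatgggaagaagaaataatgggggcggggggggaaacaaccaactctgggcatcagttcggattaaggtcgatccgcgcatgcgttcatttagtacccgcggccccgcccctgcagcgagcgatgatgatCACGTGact
Bcl2l1: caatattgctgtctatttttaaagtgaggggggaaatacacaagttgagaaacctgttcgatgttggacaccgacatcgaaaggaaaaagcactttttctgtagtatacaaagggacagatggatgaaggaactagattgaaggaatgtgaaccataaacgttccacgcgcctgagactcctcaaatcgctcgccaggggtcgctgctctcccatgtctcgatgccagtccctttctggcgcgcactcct
Bcl2l11: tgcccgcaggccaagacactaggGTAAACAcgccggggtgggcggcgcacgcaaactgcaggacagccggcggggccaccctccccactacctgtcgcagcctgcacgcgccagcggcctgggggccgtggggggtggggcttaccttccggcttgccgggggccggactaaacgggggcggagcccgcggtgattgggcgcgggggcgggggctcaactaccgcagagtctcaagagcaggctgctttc

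The motifs were searched on both strands in the same 250 bases before 32851 RefSeq starts. The p53 half-site, which begins 201 bases before the start of Bax, is found in 7.13% of all windows. An E-box (CACGTG) begins 9 bases before that start and is found in 6.02% of windows. The FOXO motif (GTAAACA) begins 227 bases before the start of Bcl2l11 and is found in 3.17%. It also occurs in 1 of the 3 windows of Bbc3, at chr7:16310011-16310260, and not in the second window of Bcl2l11, at chr2:128127325-128127574. None of these 3 matches overlaps another motif searched. Bax also holds 2 copies of the GC box (GGGCGG) and Bcl2l11 holds 3, and 32.7% of all windows hold at least 1. The Bcl2l1 window shown holds none of the 9 motifs searched. RefSeq gives Bcl2l1 other starts too, and the window before one of them, at chr2:152830718-152830967, holds an NF-kB motif 242 bases before that start. This window and the remaining one lie inside an annotated UTR and are not printed. Beside the 4 above these were the NF-kB motif, found in 9.55% of windows, the AP-1 motif (TGANTCA), found in 6.75%, the promoter element CCAAT, found in 33.8%, the cyclic AMP response element (TGACGTCA), found in 1.55%, and the TATA box (TATAAA), found in 12.4%. Bcl2l11 holds 1 CCAAT element, 57 bases before its start. A match is a description of the letters and not evidence of binding.

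Values are FPKM, fragments scaled for transcript length and library total. FPKM carry no read number, and the depth of the libraries is unknown. Fold changes are differences of mean log2(FPKM + 1), knockout minus wild type, which understates changes of genes of low level. They were tested in limma with adjustment over all 12836 genes. Knockout library 3 stood apart from the rest, with a Pearson correlation across genes of 0.934 to 0.956 with the other libraries, against 0.976 to 0.989 among the other 5. Its 13 tubular injury markers summed to 1878 FPKM against 5252 to 6975 in the other 5 libraries, its 12 proximal tubule markers to 7609 against 5029 to 5973, its 7 collecting duct markers to 503.1 against 107.5 to 192.9, and the 5 adipocyte markers in the table to 125.9 against 12.78 to 21.27. All proximal tubule markers were present in every library, as a kidney label requires. The fold change of each member is therefore given with and without knockout library 3. The part of these cell type differences in the results was not tested.

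No member passed the test between genotypes. Of the 10, 0 had a limma adjusted p under 0.05, while 0.117% of all genes did, and 1, Bax, had an unadjusted p under 0.05, against 8.08% of all genes. The members with no overlap between the genotypes were Bax and Bak1, both lower in the knockout, and Bcl2l1, higher in the knockout. These are 3 of 10 members, against 16.6% of all genes tested. By direction, 8.8% of all genes were lower and 7.76% higher without overlap. In a whole-kidney sample, fewer cells of a type and less RNA per cell cannot be told apart.

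**Figure D1:**
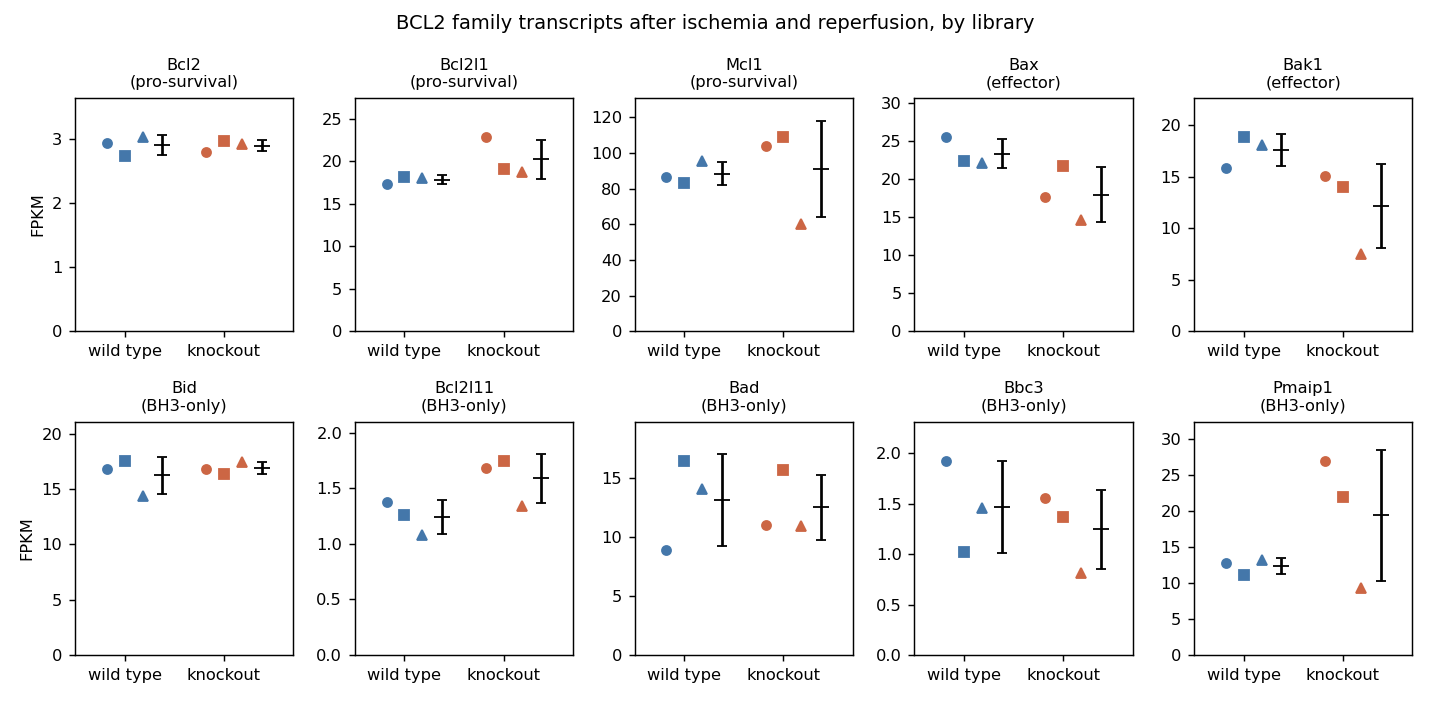
FPKM of the 10 members in each library, on linear axes from 0, with circles, squares and triangles for libraries 1, 2 and 3 of each genotype and the black mark and bar for the mean and SD of 3. Bax and Bak1 lie lower and Bcl2l1 higher in all 3 knockout libraries, and knockout library 3 lies far below the other knockout libraries in Mcl1 and Pmaip1.

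The pro-survival members differed by little in mean. Mcl1 (ENSMUSG00000038612.16, chromosome 3, 95658788 to 95663176), which encodes a short-lived protein that guards BAK, was by far the most abundant member. Its FPKM were 86.3, 83.0 and 95.6 in wild type and 104, 109 and 60.3 in the knockout. Knockout libraries 1 and 2 were above every wild type library and knockout library 3 below every one, so the groups overlapped. Its log2 fold change was 0.00 ± 0.23 (SE, limma adjusted p = 0.999), with a 95% interval from -0.54 to 0.54, and it was 0.27 ± 0.09 without knockout library 3 (limma adjusted p = 0.674).

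Bcl2l1 (ENSMUSG00000007659.18, chromosome 2, 152780668 to 152831728) encodes BCL-XL, the long product of a gene that also has a short, pro-death splice form. A gene-level value does not separate the splice forms. It stood at 17.3, 18.2 and 18.1 FPKM in wild type and at 22.9, 19.1 and 18.7 in the knockout. All 3 knockout libraries were higher, though knockout libraries 2 and 3 lay just above the highest wild type library. The log2 fold change was 0.17 ± 0.10 (SE, limma adjusted p = 0.64) and 0.22 ± 0.10 without knockout library 3. Bcl2 (ENSMUSG00000057329.7, chromosome 1, 106538178 to 106714274), the founding member of the family, was low and even, at 2.95, 2.74 and 3.04 FPKM in wild type and 2.81, 2.97 and 2.93 in the knockout. Its 95% interval, -0.22 to 0.22 on the log2 scale, was the narrowest of the 10, and its log2 fold change of 0.00 was -0.01 without knockout library 3. That rank depends on the 1 FPKM added before the log. With 0.1 added instead, its SE was 0.12, against 0.11 for Bcl2l1 and 0.11 for Bid.

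Both effectors were lower in all 3 knockout libraries than in the lowest wild type library. Bax (ENSMUSG00000003873.11, chromosome 7, 45461697 to 45466898), whose protein moves from the cytosol to mitochondria when activated, stood at 25.6, 22.4 and 22.2 FPKM in wild type and at 17.7, 21.7 and 14.6 in the knockout. The gap between the groups was narrow, since knockout library 2 lay just below wild type library 3. The means were 23.4 ± 1.93 and 18.0 ± 3.53 (SD, n = 3 each), 0.77 times the wild type level. In the fit, Bax had a log2 fold change of -0.37 ± 0.15 (SE, limma adjusted p = 0.592) and -0.24 ± 0.12 without knockout library 3 (limma adjusted p = 0.734). The predicted gene Gm45808 overlaps Bax on the same strand, and 11.1% of the 31-base words of Bax occur in transcripts of other genes, so a part of its reads may be shared.

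Bak1 (ENSMUSG00000057789.13, chromosome 17, 27019810 to 27029009), whose protein sits in the outer mitochondrial membrane, stood at 15.9, 18.9 and 18.1 FPKM in wild type and at 15.1, 14 and 7.55 in the knockout. Knockout library 3 was the lowest by a wide margin, and knockout library 1 lay just below wild type library 1. The means were 17.6 ± 1.56 and 12.2 ± 4.07 (SD, n = 3 each). In the fit, Bak1 had a log2 fold change of -0.55 ± 0.24 (SE, limma adjusted p = 0.592) and -0.26 ± 0.10 without knockout library 3 (limma adjusted p = 0.691). Bak1 lies 30.2 Mb from Tnfsf14 on the same chromosome. Ggnbp1, which overlaps it on the opposite strand, averaged 1.25 ± 0.163 FPKM in wild type and 1.91 ± 0.557 in the knockout. The neutrophil markers were lower in the knockout too, all 10 tested of 12, with a sum of 76.9 to 114 FPKM in wild type and 27.25 to 75.79 in the knockout, where Ly6g and Mmp8 were not in the table. The summed tubular injury markers were 6206 to 6975 FPKM in wild type and 1878 to 6421 in the knockout, with 11 of 13 lower. Their median log2 fold change was -0.68, or -0.11 without knockout library 3. The proximal tubule markers summed to 5029 to 5969 FPKM in wild type and 5925 to 7609 in the knockout, with 11 of 12 higher. Their median was 0.63, or 0.34 without knockout library 3. The part of these marker differences in the values of Bax and Bak1 was not tested.

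**Figure D2:**
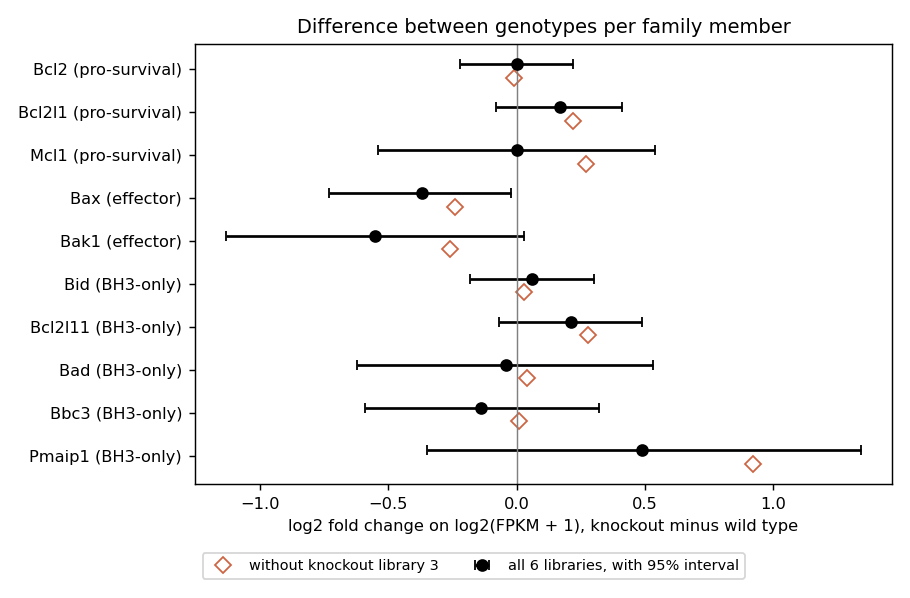
Log2 fold change (knockout minus wild type, on log2(FPKM + 1)) of each member, as filled circles with 95% intervals from the fit of all 6 libraries and as open diamonds without knockout library 3. Bax is the member whose interval, -0.73 to -0.02, does not include 0, before any adjustment, and the diamond of Pmaip1 lies furthest from its circle, at 0.92 against 0.49.

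The BH3-only members had no common direction, with 3 higher and 2 lower in mean log2 level and 0 past the test. Pmaip1 (ENSMUSG00000024521.7, chromosome 18, 66458533 to 66465565), which encodes NOXA, varied most. It stood at 12.8, 11.1 and 13.2 FPKM in wild type and at 27.0, 21.9 and 9.32 in the knockout. Knockout libraries 1 and 2 were far above the wild type libraries and knockout library 3 was the lowest of the 6. Pmaip1 had a log2 fold change of 0.49 ± 0.35 (SE, limma adjusted p = 0.674), and without knockout library 3 it was 0.92 ± 0.12 (limma adjusted p = 0.129), which does not pass either. In both Mcl1 and Pmaip1, knockout libraries 1 and 2 were above every wild type library and knockout library 3 was below every one. The ratio of Pmaip1 to Mcl1 in FPKM was 0.148, 0.134 and 0.138 in wild type and 0.26, 0.201 and 0.154 in the knockout. It was higher in every knockout library, though knockout library 3 lay just above wild type library 1. This ratio was not planned and is a description of 1 pair among many possible.

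Bcl2l11 (ENSMUSG00000027381.16, chromosome 2, 128126038 to 128162547), which encodes BIM, was low, at 1.38, 1.26 and 1.08 FPKM in wild type and at 1.68, 1.75 and 1.34 in the knockout. Knockout libraries 1 and 2 were above all wild type libraries and knockout library 3 was just below wild type library 1. The log2 fold change was 0.21 ± 0.12 (SE, limma adjusted p = 0.62) and 0.28 ± 0.12 without that library. Bbc3 (ENSMUSG00000002083.13, chromosome 7, 16308393 to 16318205), which encodes PUMA, was as low, at 1.93, 1.02 and 1.46 FPKM and at 1.56, 1.37 and 0.81. The lowest value was that of knockout library 3, and the groups overlapped. The log2 fold change of Bbc3 was -0.14 ± 0.19 (SE, limma adjusted p = 0.825) and 0.01 without knockout library 3.

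Bid (ENSMUSG00000004446.12, chromosome 6, 120891930 to 120916853), which links death receptors to mitochondria once caspase 8 has cleaved its protein, was even across libraries. It stood at 16.8, 17.6 and 14.4 FPKM in wild type and at 16.8, 16.4 and 17.5 in the knockout. Its log2 fold change was 0.06 ± 0.10 (SE, limma adjusted p = 0.861), with a 95% interval from -0.18 to 0.30, and 0.03 without knockout library 3. Bid overlaps Bcl2l13, another family gene, on the opposite strand. Bad (ENSMUSG00000024959.13, chromosome 19, 6941861 to 6951899), whose protein is silenced by survival kinases, spread widely within each genotype, at 8.90, 16.5 and 14.1 FPKM in wild type and 11, 15.7 and 10.9 in the knockout. The log2 fold change of Bad was -0.04 ± 0.24 (SE, limma adjusted p = 0.962), and its 95% interval, -0.62 to 0.53, leaves a change of either sign possible. Without knockout library 3 it was 0.04.

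The planned score set all 7 pro-death members against the 3 pro-survival members within each library, and the genotypes overlapped in it. Its splits into effectors and BH3-only members were not planned. The effectors were lower relative to the pro-survival members in the knockout, with or without knockout library 3. For the BH3-only members the genotypes overlapped, through knockout library 3 alone. The mean log2(FPKM + 1) of Bax and Bak1 minus that of Bcl2, Bcl2l1 and Mcl1 was 0.20, 0.25 and 0.11 in wild type and -0.29, -0.16 and -0.54 in the knockout. Every knockout library was below every wild type library, and the difference of means was -0.52, or -0.41 without knockout library 3. Bax and Bak1 are the 2 members reported above as lower without overlap, so this score is not a separate result. For the 5 BH3-only members minus the same 3, the values were -1.40, -1.36 and -1.48 in wild type and -1.34, -1.29 and -1.43 in the knockout. Knockout libraries 1 and 2 were above every wild type library there and knockout library 3 was not, and the difference of means was 0.06, or 0.10 without knockout library 3. For all 7 pro-death members the values were -0.94, -0.90 and -1.03 in wild type against -1.04, -0.97 and -1.17 in the knockout, with group means of -0.96 ± 0.06 and -1.06 ± 0.10 (SD, n = 3 each). Knockout library 2 lay above wild type library 3 there, and the difference of means was -0.10, or -0.05 without knockout library 3. Such scores over chosen members are given as descriptions, with no test.

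**Figure D3:**
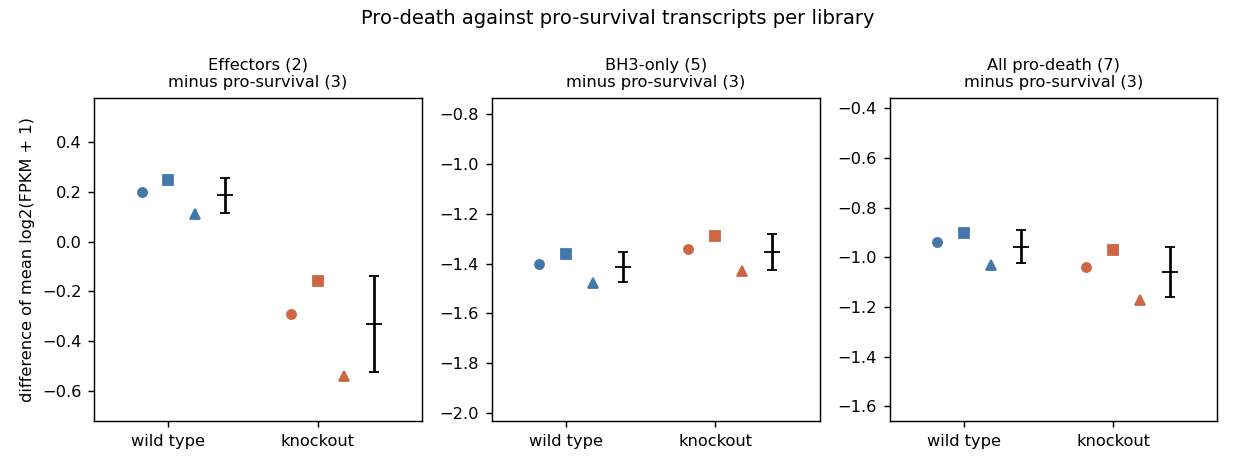
Difference of mean log2(FPKM + 1) between pro-death and pro-survival members in each library, for the 2 effectors, the 5 BH3-only members and all 7 together. Circles, squares and triangles are libraries 1, 2 and 3, black marks and bars are mean and SD of 3, and the 3 axes span the same range. The effector difference is above 0 in all wild type libraries and below 0 in all knockout libraries. The genotypes overlap for the BH3-only members and for all 7 together.

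Ratios of single genes were not planned, come from many possible pairs, and are given as descriptions. Bax stood at 8.69, 8.18 and 7.29 times the FPKM of Bcl2 in wild type and at 6.30, 7.30 and 5.00 times in the knockout. In this ratio knockout library 2 was level with wild type library 3. Against Bcl2l1, Bax was at 1.48, 1.23 and 1.22 times in wild type and 0.773, 1.13 and 0.783 times in the knockout. Bax was lower and Bcl2l1 higher without overlap, so this ratio had to separate and is not a separate result. Bak1 against Mcl1, the pair that binds in healthy cells, was at 0.184, 0.228 and 0.190 in wild type and 0.146, 0.128 and 0.125 in the knockout. Here knockout library 3 lay beside knockout library 2, since both its Bak1 and its Mcl1 were low.

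FPKM are scaled per length, so levels can be set side by side between genes. Over the 6 libraries the means ran from Mcl1 at 89.6 FPKM through Bax (20.7), Bcl2l1 (19.1), Bid (16.6), Pmaip1 (15.9), Bak1 (14.9) and Bad (12.9) to Bcl2 (2.91), Bcl2l11 (1.41) and Bbc3 (1.36). Mcl1 was above every other member in each library, and held 43.1 to 47.5% of the members' summed FPKM in wild type and 41.9 to 48.7% in the knockout. The 6 members from Bax to Bad overlapped their neighbours over the 6 libraries, as did Bcl2l11 and Bbc3, while Bcl2 was separate from both sides. Mcl1 was above 96% of all genes in the table by mean level, and Bcl2l11 and Bbc3 were above 14.2 and 13.6%. The summed FPKM of the 10 members was 190, 193 and 201 in wild type and 220, 224 and 144 in the knockout.

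Knockout library 3 was the lowest of the 6 in 5 members, Bax, Bak1, Mcl1, Bbc3 and Pmaip1, and the highest in 0. Over all genes tested it was the lowest in 30.3% and the highest in 29.8%. Across the 6 libraries, on log2(FPKM + 1), Pearson's r between Bax and Bak1 was 0.81, and 0.27 without knockout library 3. That between Pmaip1 and Mcl1 was 0.84, and 0.88 without it. These coefficients rest on 6 or 5 points that share their genotype difference and are descriptions only.

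No other gene of the family passed the test either. Of 15 further BCL2 family genes, 12 were tested, 4 higher and 8 lower. In limma 0 had an adjusted p under 0.05, against 0.117% of all genes, and 2 an unadjusted p under 0.05, against 8.08%. Their median log2 fold change was -0.10, or -0.11 without knockout library 3, against -0.01 over all genes. Bnip3, a hypoxia-induced gene whose protein acts in mitophagy, averaged 45.1 ± 5.19 FPKM in wild type and 62.5 ± 13.2 in the knockout (SD, n = 3 each), and its log2 fold change was 0.45 (limma adjusted p = 0.592). Bnip3 was the most abundant gene of this list, and 20.31% of its 31-base words occur in other genes. Bcl2l14 was at the floor of the table, at 0.520, 0.602 and 0.856 FPKM in wild type and 0.355, 0.321 and 0.351 in the knockout, without overlap (limma adjusted p = 0.592). It was the only 1 of the 12 tested without overlap, against 16.6% of all genes.

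The pro-survival gene Bcl2l2, which encodes BCL-W, stood at 6.88, 7.66 and 5.90 FPKM in wild type and at 6.52, 7.17 and 17.8 in the knockout. Its log2 fold change of 0.43 was 0.01 without knockout library 3, and 12.79% of its 31-base words occur in other genes. Bok, which encodes an effector-like protein, averaged 16.3 ± 5.37 and 14.8 ± 2.80 FPKM (SD, n = 3 each), close to the level of Bak1. The copies Bcl2a1a, Bcl2a1b and Bcl2a1d, pro-survival genes of leukocytes and targets of NF-kB, share 79.59 to 89.08% of their words with other genes, mainly each other, so their values are uncertain one by one. Summed, they stood at 7.08, 5.09 and 6.47 FPKM in wild type and 7.17, 4.78 and 6.03 in the knockout. The sum overlapped between the genotypes. The part of leukocyte content in it was not tested.

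Genes of the p53 pathway, which is known to act on Bax, Bbc3 and Pmaip1, gave 0 genes past the limma threshold, against 0.117% of all genes. Of 18 genes tested, 5 were higher and 13 lower, beside 6154 higher and 6682 lower of all 12836 genes, and 2 had an unadjusted limma p under 0.05, a level that 8.08% of all genes reached. The list median was -0.21 on the log2 scale, or -0.13 without knockout library 3. Mdm2, a p53 target that degrades p53, stood at 11.8, 12.6 and 13.4 FPKM in wild type and 10.2, 11.2 and 9.84 in the knockout, without overlap. Its log2 fold change was -0.25 ± 0.10 (SE, limma adjusted p = 0.592). Zmat3, another p53 target, averaged 5.30 ± 0.489 and 4.18 ± 0.506 FPKM (SD, n = 3 each), also without overlap. Mdm2 and Zmat3 were the only 2 of the 18 genes without overlap, against 16.6% of all genes. Ccng1, the most abundant gene of the list, averaged 89.0 ± 6.89 and 85.9 ± 6.56 FPKM and overlapped.

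Trp53 itself stood at 16.2, 12.3 and 17.4 FPKM in wild type and 15.8, 14.5 and 7.39 in the knockout, and its log2 fold change of -0.32 was -0.01 without knockout library 3. Cdkn1a, the p53 target that stops the cell cycle, stood at 34.5, 36.3 and 43.6 FPKM and at 27.7, 34.6 and 10.6, with a log2 fold change of -0.77 (limma adjusted p = 0.602) and -0.29 without that library. Of the 3 members known as p53 targets, Bax was lower and Bbc3 overlapped. Pmaip1 was higher in 2 of 3 knockout libraries and below every wild type library in knockout library 3. The part of p53 in these values was not tested.

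**Figure D4:**
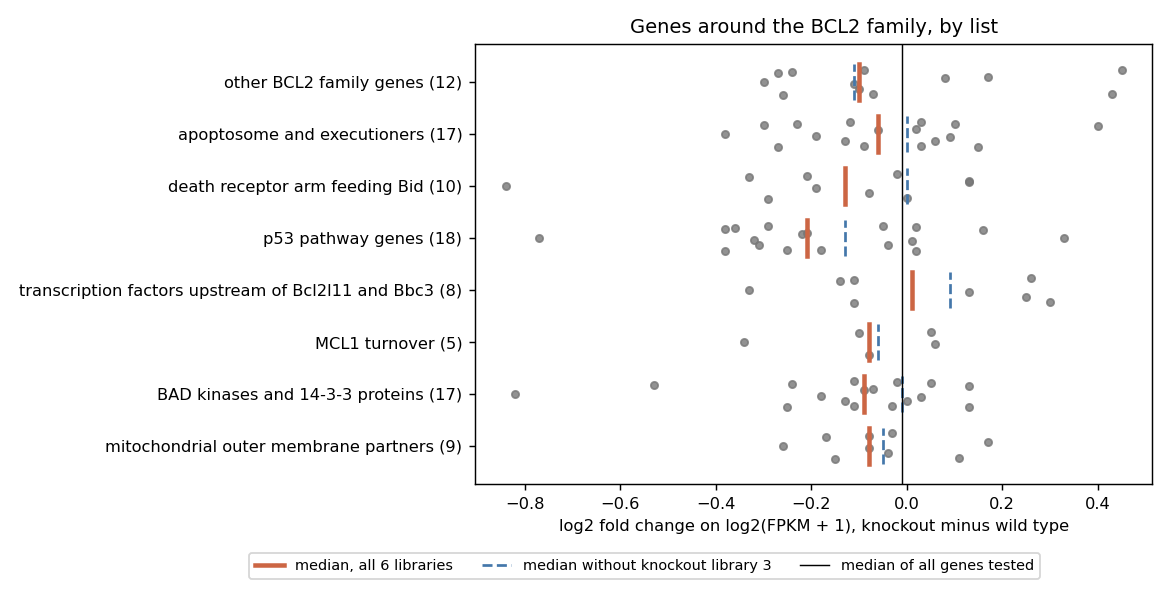
Log2 fold change (knockout minus wild type, on log2(FPKM + 1)) of each gene tested in 8 lists around the family, with the number of genes in brackets, 1 grey point a gene. Solid marks are list medians over 6 libraries, dashed marks without knockout library 3, and the black line is the median of all genes; the p53 list has the lowest median at -0.21.

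Upstream of Bcl2l11 and Bbc3, 8 transcription factor genes were tested, 4 higher and 4 lower, with a median of 0.01, or 0.09 without knockout library 3. In limma 0 passed the adjusted threshold, against 0.117% of all genes, and 1, Foxo1, had an unadjusted p under 0.05, against 8.08%. Without overlap 1 of the 8 was higher and 0 lower, against 16.6% of all genes in either direction. Foxo1, whose protein activates Bcl2l11 when survival signalling falls, stood at 6.86, 6.13 and 6.12 FPKM in wild type and 7.64, 8.37 and 8.21 in the knockout. The groups did not overlap, and the log2 fold change was 0.30 ± 0.09 (SE, limma adjusted p = 0.592), and 0.29 without knockout library 3. The part of Foxo1 in the levels of Bcl2l11 and Bbc3 was not tested. Ddit3, which encodes the stress factor CHOP, averaged 9.37 ± 1.16 and 11.4 ± 1.93 FPKM (SD, n = 3 each), and Atf4, the most abundant of the list, 87.7 ± 11.6 and 81.3 ± 10.5.

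Death receptor genes, the arm that feeds Bid, gave 2 higher and 8 lower of 10 tested. Their median of -0.13 was 0.00 without knockout library 3. None passed the limma threshold and 0 had an unadjusted limma p under 0.05, against 0.117% and 8.08% of all genes. Without overlap 1 of the 10 was higher and 0 lower, against 16.6% of all genes in either direction. Cflar, whose product FLIP blocks caspase 8, stood at 13.9, 15.2 and 14 FPKM in wild type and 15.5, 16.1 and 15.8 in the knockout, without overlap (limma adjusted p = 0.64). Ripk1, a kinase that joins survival and necroptosis signalling, averaged 8.64 ± 0.258 and 7.55 ± 1.35 FPKM (SD, n = 3 each). Tnfrsf12a, the receptor of TWEAK and the most abundant of the list, stood at 238, 249 and 222 FPKM and at 238, 213 and 44.7, so its log2 fold change of -0.84 was -0.07 without knockout library 3. Casp8, which cleaves BID, stood at 21.3, 20.5 and 18.0 and at 23.7, 16.2 and 13.0 FPKM.

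Downstream of the membrane, 17 genes of the apoptosome, caspases and their inhibitors were split, 8 higher and 9 lower, with a median of -0.06 that was 0.00 without knockout library 3. None passed the limma threshold, against 0.117% of all genes, and 1, Endog, had an unadjusted p under 0.05, against 8.08%. Without overlap 2 of the 17 were higher and 0 lower, against 16.6% of all genes in either direction. Endog, which encodes a mitochondrial nuclease, stood at 17.1, 16.1 and 15.4 FPKM in wild type and 17.7, 20.8 and 27.6 in the knockout, without overlap (log2 fold change 0.40, limma adjusted p = 0.592, and 0.23 without knockout library 3). Apaf1, the scaffold of the apoptosome, averaged 1.94 ± 0.633 and 1.22 ± 0.0683 FPKM (SD, n = 3 each) and overlapped. Cycs, the gene of cytochrome c and the most abundant of the list, averaged 110 ± 2.17 and 104 ± 10.1. The initiator Casp9 averaged 5.54 ± 0.555 and 5.82 ± 0.444 FPKM.

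Genes that act on the proteins of the members, and those of the membrane itself, gave 0 genes at a limma adjusted p under 0.05 and 0 at an unadjusted p under 0.05. Over all genes the shares were 0.117% and 8.08%. Of 5 genes of MCL1 turnover, 2 were higher and 3 lower, with a median of -0.08, or -0.06 without knockout library 3. Fbxw7, a ubiquitin ligase subunit for MCL1, averaged 3.62 ± 0.527 FPKM in wild type and 2.75 ± 1.18 in the knockout (SD, n = 3 each), the deubiquitinase Usp9x 22.0 ± 1.79 and 20.4 ± 1.41, and the mitochondrial ligase March5 36.8 ± 4.40 and 38.2 ± 0.736. A list of 17 genes held those of BAD kinases, of 14-3-3 proteins, which hold BAD in the cytosol, and the phosphatase gene Ppp3ca. Of these, 4 were higher and 13 lower, with a median of -0.09, and -0.01 without knockout library 3. The 14-3-3 gene Ywhaz stood at 161, 162 and 161 FPKM and at 148, 147 and 112, without overlap (limma adjusted p = 0.598), and Ywhae averaged 162 ± 9.47 and 143 ± 12.6. Ywhaz was the only 1 of the 17 without overlap, against 16.6% of all genes.

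On the outer mitochondrial membrane, where BAX and BAK act, 2 of 9 genes were higher and 7 lower, with a median of -0.08, or -0.05 without knockout library 3. Vdac1, a channel of that membrane, stood at 211, 202 and 186 FPKM in wild type and 228, 212 and 234 in the knockout, higher without overlap by a narrow gap (limma adjusted p = 0.62). Tomm20, a subunit of the protein import pore, averaged 46.8 ± 5.58 and 38.9 ± 3.83 FPKM (SD, n = 3 each). The genotypes overlapped in Tomm20 (limma adjusted p = 0.595). Without overlap 1 of the 9 genes was higher and 2 lower, against 7.76% and 8.8% of all genes.

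Among 11413 other genes of at least 1 FPKM, the one most like each member over the 6 libraries reached a Pearson r between 0.9764 and 0.9990. With 6 points and so many genes, such values are a description only. The closest to Bax was Nars (r = 0.9988), to Bak1 Hprt (0.9963), to Bcl2l1 Trpc4ap (0.9839), to Mcl1 Dusp8 (0.9990) and to Pmaip1 Palld (0.9937).

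Markers of other cell types are given by their summed level. The 11 macrophage markers summed to 132 to 251.2 FPKM in wild type and 120.8 to 161 in the knockout, and the 8 endothelial markers to 76.41 to 102.4 and 75.66 to 104.7. Of 9 T and NK cell markers, 2 were in the table, at a sum of 0.08395 to 0.213 and 0.5011 to 1.893 FPKM, and Cd3e, Cd4 and Cd8a were not in it. Of 8 B and plasma cell markers, 3 were in the table, at 1.06 to 2.248 and 8.573 to 9.745. The 6 markers of thick ascending limb and distal tubule summed to 548.5 to 857.7 and 456.1 to 896.8 FPKM, the 5 podocyte markers to 91.98 to 108.1 and 81.37 to 82.43, and the 7 stromal markers to 279.5 to 499.4 and 221 to 298.5. Of 5 adrenal markers, Star was in the table, at 0.9436 to 1.631 and 0.4475 to 1.367. Pvalb, Cd3g, Nkg7, Adipoq, Plin1 and Cfd were listed at 0 in at least 1 library. The part of these cells in the members' values was not tested.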

How the data were processed

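RNA was measured in 6 kidney libraries, grouped and numbered by their titles. The authors deposited FPKM for each gene. The submitters' processing notes name FastQC, HISAT2, StringTie and mm10 without versions; the annotation and use of strand are not stated in the labels. Each library's own file was identical to the table. The higher of the 2 group means was nowhere under 0.50043 FPKM, so lower genes are outside the table. FPKM carry no depth, so no count model or counting interval was used.

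Genes of mean 0.5 FPKM or more were fitted on log2(FPKM + 1) in limma 3.58.1 (R 4.3.3) with a mean-variance trend. The two-sided p-values were adjusted by Benjamini-Hochberg over 12836 genes, threshold 0.05. The fit was also run on simulated data with independent noise, changes larger than those of the members and no library standing apart. That run cannot show how the fit handles changes of the members' size. An exact permutation test of 3 against 3 cannot go below 0.1. Intervals of 95% use the moderated SE and 6.7 degrees of freedom.

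The members and the 8 pathway and 13 marker lists were chosen with earlier results of these data known. From each pathway list, genes past the threshold were to be named, otherwise the 2 of smallest p, and the most abundant. Bcl2l2, Bok, the Bcl2a1 copies, Trp53, Cdkn1a, Casp8, Casp9 and Ggnbp1 were added with their values in view. The score over all pro-death members was planned, and its splits and the ratios of single genes were not. Gene positions came from GENCODE M21 (GRCm38, the assembly of mm10), which matched 13005 of 13026 identifiers without version. Alternatives were other pseudocounts, filters, scalings and variance models, a replicate block, and each library left out.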

Additional observations from a re-analysis of the deposited data

How the results depend on the processing

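The count of members past the threshold was 0 in the reported fit and under all 17 alternatives, where the smallest limma adjusted p of any member was 0.102, for Pmaip1 with library weights. The difference between pro-death and pro-survival members was -0.10, and between -0.15 and -0.05 with each library left out. Bax stayed between -0.51 and -0.15, Bak1 between -0.72 and -0.26, Bcl2l1 between 0.08 and 0.22, Bcl2l11 between 0.16 and 0.34 and Pmaip1 between 0.21 and 0.92 on the log2 scale, while Mcl1 ran from -0.15 to 0.29 and Bcl2 from -0.03 to 0.04. Signs turned with library weights for Bid (-0.02), Bad (0.13), Bbc3 (0.02), Atf4 (0.07), Fbxw7 (0.06) and Bok (0.11). With each library left out in turn, Bid ranged from -0.02 to 0.11 and turned on omitting wild type 3. Bad ranged from -0.28 to 0.13 and turned on omitting wild type 2 (0.13), wild type 3 (0.03), knockout 1 (0.04) or knockout 3 (0.04). Bbc3 ranged from -0.27 to 0.01 and turned on omitting knockout 3. Bok ranged from -0.26 to 0.14 and turned on omitting wild type 3 or knockout 1 (0.05). Bcl2a1a ranged from -0.28 to 0.06 and turned on omitting knockout 2 (0.01) or knockout 3, and Bcl2a1d from -0.03 to 0.19 and turned on omitting wild type 2. The cause was not tested. Over all genes, 15 passed, 52 with library weights, 0 with the replicate block, and 0 to 11 with a library left out. It was 0 on omitting wild type 1, wild type 3 or knockout 2, 6 on omitting wild type 2 and 7 on omitting knockout 1. Deviations from the group means had correlations of 0.15, -0.13 and -0.02 between same-numbered libraries, against -0.14 to 0.18 between the others. With 3 libraries per group, such correlations cannot decide whether the numbers pair the samples. The replicate block called 0 members. Depth is unknown, so no counting error can be given for the low members Bcl2, Bcl2l11 and Bbc3.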
